A study of Rattus norvegicus with 30 samples.

Results

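The matrix metalloproteinases (MMPs) and their tissue inhibitors (TIMPs) were followed in the hippocampus of rats given kainate, an agonist of a class of glutamate receptors that evokes seizures. The set holds every probe set annotated with exactly 1 gene symbol that starts with Mmp or Timp and goes on with a digit. The rule found 17 probe sets for 15 genes, 12 of them MMP genes and 3 TIMP genes, among 4736 genes named by a single symbol on the array. Of the 17, 12 probe sets for 11 genes were bright enough to be tested, and 5 probe sets were not. The 5 are the only probe sets of Mmp8, Mmp10, Mmp12 and Mmp13 and 1 of the 2 probe sets of Mmp2.

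Total RNA from hippocampus was hybridised to Affymetrix arrays, short-oligonucleotide chips on which a group of probes (a probe set) reports a transcript as a signal intensity. The rats had received kainate or, as controls, phosphate-buffered saline (PBS), and tissue was taken after 1, 6, 24, 72 or 240 h, with 3 arrays in each of the 10 groups and 30 arrays in all. The labels give neither dose, route, strain, age nor sex, and they do not say whether each array came from a separate animal, so p-values here measure the spread between arrays. Signals are on a linear scale. A value at or below 10.95, the 20th percentile of all values, was treated as lying at a floor, and a probe set was tested when it exceeded a signal of 35.2 on at least 3 arrays.

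MMPs are zinc-dependent proteases that are made as inactive precursors and, once cleaved, cut collagens, laminins, proteoglycans and cell surface proteins. TIMPs are small secreted proteins that block the active site of most MMPs, so the balance of proteases and inhibitors sets how fast the matrix around cells is remodelled. In the hippocampus the gelatinase Mmp9 is known for its part in the remodelling of dendritic spines and in responses to seizures, and Timp1 is known as the TIMP gene whose transcription responds most readily to growth factors and cytokines. A whole-tissue signal does not tell a change in the number of cells of a type from a change in RNA per cell.

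The markers of the labelled tissue were present. All 8 measured markers of hippocampal principal neurons passed the brightness filter, with Nrgn at 1780 to 3443 and Camk2a at the floor on 1 array. Replicate arrays correlated with r of 0.925 to 0.978. The arrays of 6 and 72 h differed from those of 1, 24 and 240 h also under PBS: 20.1% of the 6303 tested probe sets differed between these sets of PBS arrays (limma, Benjamini-Hochberg adjusted p below 0.05, a contrast chosen after seeing the data). Among the 12 tested MMP and TIMP probe sets only Timp3 did, and it was higher in PBS at 6 and 72 h by 0.63 ± 0.21 on the log2 scale (SE, limma adjusted p = 0.0335). Kainate was therefore set against PBS of the same time throughout. The choroid plexus genes, led by Ttr (104 to 5108), varied widely within both treatments, with summed signals of 151 to 5187 over 3 genes.

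Timp1 and Mmp9 were higher in kainate rats than in PBS rats within the first day, and at 24 h Timp2 was higher and Mmp14 lower. At 1 h, 1 of the 12 tested probe sets passed, Timp1, and it was higher, against 1.09% of all tested probe sets in either direction and 0.904% higher (limma, adjusted p below 0.05 throughout). At 6 h, 3 passed and all were higher, both Timp1 probe sets and Mmp9, against 3.93% in either direction and 3.24% higher overall. At 24 h, 4 were higher (both Timp1 probe sets, Mmp9 and Timp2) and 1 was lower (Mmp14), against 11.3% of all tested probe sets, 5.03% higher and 6.3% lower. At 72 h and at 240 h none passed in limma, against 0.0476% overall at each time. At an unadjusted p below 0.05 there was 1 at each of these times, Timp2 at 72 h and Timp1 at 240 h, against 6.33% and 12.2% of all tested probe sets. At the same level 1, 4 and 8 members passed at 1, 6 and 24 h, against 9.68%, 14.7% and 26.4%. Without any test, the kainate arrays lay wholly above the PBS arrays for 1, 4, 5, 3 and 1 of the 12 probe sets from 1 to 240 h, against 4.73%, 9.65%, 12.5%, 10.1% and 9.58% of all tested probe sets. They lay wholly below for 1, 1, 3, 0 and 0, against 5.55%, 18%, 15.6%, 12% and 4.89%. The Timp1 probe set rc_AI169327_g_at passed the brightness filter through kainate arrays only, and without it 0 of 11 probe sets passed at 1 h, 2 at 6 h, and 3 higher and 1 lower at 24 h. The median log2 difference of the 12 probe sets was -0.18, 0.14, 0.06, 0.07 and 0.09 from 1 to 240 h, and that of all tested probe sets was -0.04, -0.11, -0.05, -0.04 and 0.03.

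**Figure D1:**
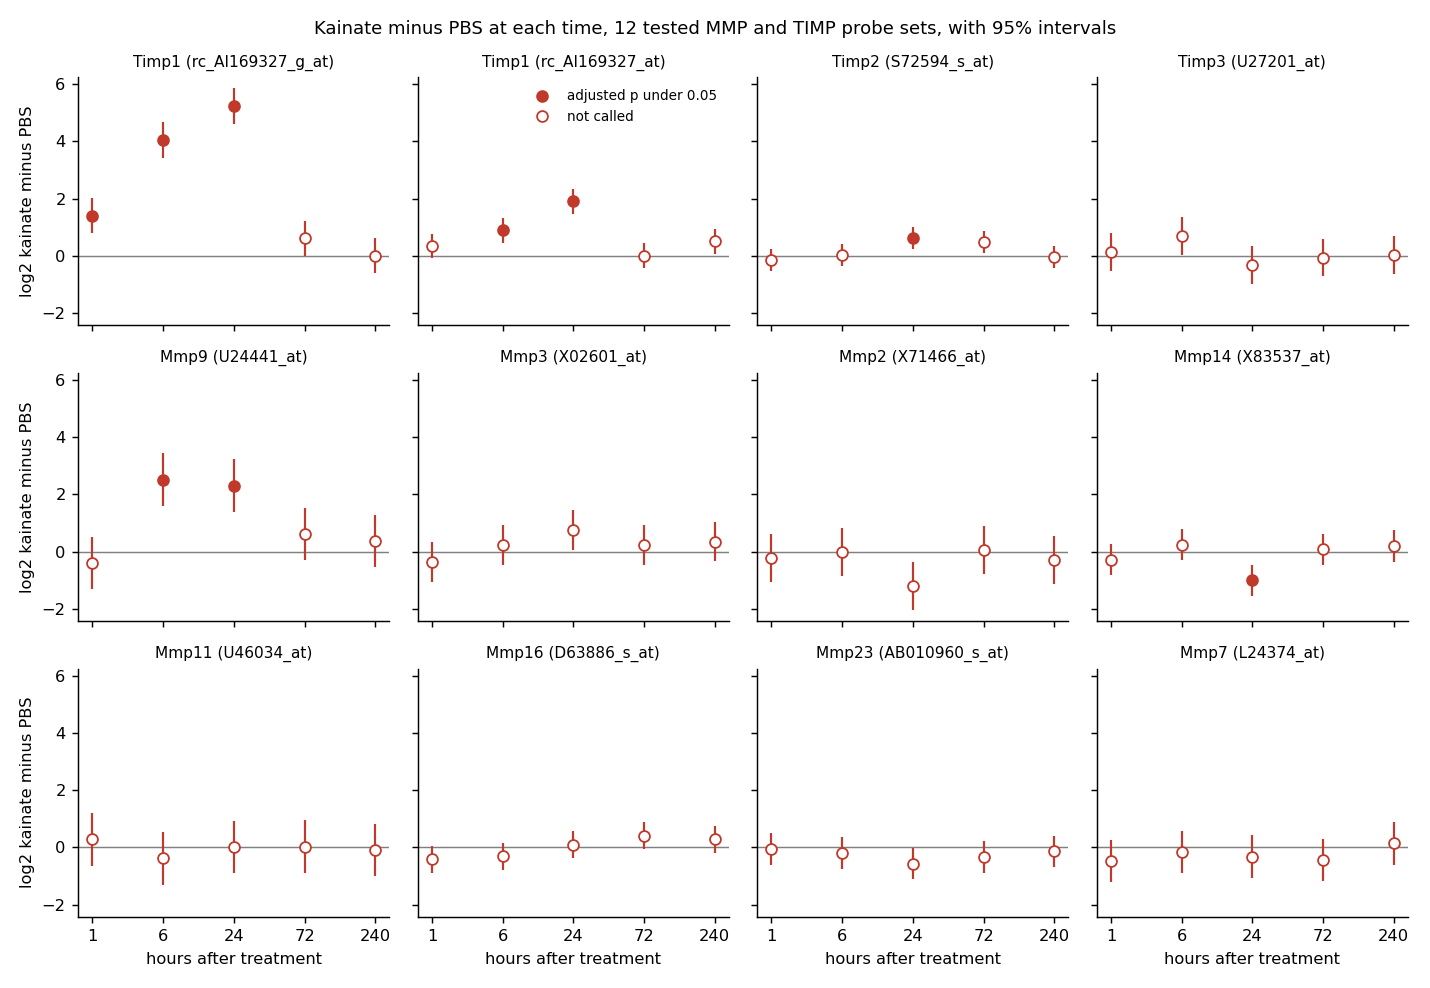
Log2 difference between kainate and PBS (vertical axis) at 1, 6, 24, 72 and 240 h (horizontal axis) for the 12 tested MMP and TIMP probe sets, with 95% intervals from limma; filled points passed at an adjusted p below 0.05. Timp1 and Mmp9 stand highest at 6 and 24 h, Timp2 is higher and Mmp14 lower at 24 h, and the other 7 probe sets have no filled point. Values of the probe set rc_AI169327_g_at of Timp1 are lower bounds through 72 h, since all its PBS arrays were at the floor.

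Among the inhibitors, Timp1 passed at the most times. This gene encodes a secreted inhibitor of most soluble MMPs. It has 2 probe sets named for the same sequence, rc_AI169327_at and rc_AI169327_g_at. On rc_AI169327_at the signals at 6 h were 349, 311 and 372 in kainate rats, against 159, 234 and 168 in PBS rats. At 24 h they were 576, 704 and 550 in kainate rats, against 149, 155 and 185 in PBS rats. Every kainate array lay above every PBS array at both times. The fitted rise was 0.89 ± 0.21 on the log2 scale at 6 h (SE, 1.86-fold, limma adjusted p = 0.00927) and 1.9 ± 0.21 at 24 h (3.74-fold, limma adjusted p = 4.2e-07). The 6 h call was lost when any of 3 single arrays was left out: kainate replicate 3 (limma adjusted p = 0.0639), PBS replicate 1 (0.0533) or PBS replicate 3 (0.0619).

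At the other times rc_AI169327_at did not pass. At 1 h its signals were 229, 155 and 111 in kainate rats and 142, 151 and 90.2 in PBS rats, which overlap (log2 difference 0.35 ± 0.21, limma adjusted p = 0.654). At 72 h they were 162, 176 and 158 in kainate rats and 168, 171 and 154 in PBS rats, a log2 difference of 0.01 with a 95% interval of -0.43 to 0.44. At 240 h they were 162, 174 and 191 in kainate rats, against 103, 120 and 150 in PBS rats. The 240 h arrays do not overlap, but the difference of 0.51 ± 0.21 had a limma adjusted p of 0.338, and 9.58% of all tested probe sets had kainate arrays wholly above PBS arrays at that time. The kainate groups therefore fell in the order 24 h, 6 h, then 240, 1 and 72 h with means of 176, 165 and 165, and the last 3 groups overlap.

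The other Timp1 probe set, rc_AI169327_g_at, was at the floor on all 15 PBS arrays, so its fold changes are lower bounds taken against the floor. It passed the brightness filter through 7 kainate arrays and no PBS array, so it could be tested only because of the group in which it is high, and its p-values are only a description. Its signals in kainate rats were 48.8, 25.8 and 19.2 at 1 h, 186, 161 and 199 at 6 h and 436, 412 and 394 at 24 h, against at most 8.9 in PBS rats at any of these times. All 9 of these kainate arrays stood above the floor. The signal was at least 2.64-fold higher at 1 h (limma adjusted p = 0.0102), at least 16.5-fold higher at 6 h (9.45e-11) and at least 37.8-fold higher at 24 h (7.61e-13). At 72 h it was 21.6, 7.37 and 19.6 in kainate rats, of which 1 was at the floor, against 3.41, 4.55 and 6.45 in PBS rats (limma adjusted p = 0.776). At 240 h all 6 arrays were at the floor. The 1 h call rested on 1 array: without kainate replicate 1 the log2 difference was 1.02 and the limma adjusted p 0.148. It was also lost in fits of the 6 arrays of 1 h alone (0.744) and of the arrays of 1, 24 and 240 h alone (0.104), although the size stayed at 1.4 on the log2 scale.

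**Figure D2:**
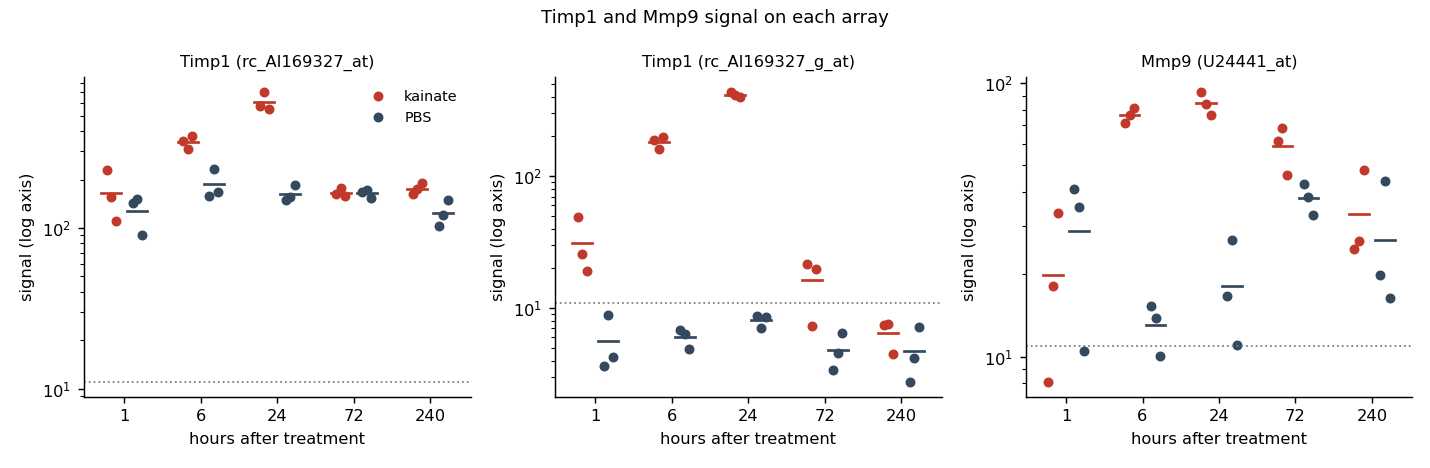
Signal (vertical log axis) of both Timp1 probe sets and of Mmp9 on each of 30 arrays at 1, 6, 24, 72 and 240 h (horizontal axis), with kainate in red at the left and PBS in dark blue at the right of each time; points are arrays, short lines are group means and the dotted line is the floor of 10.95. At 6 and 24 h every kainate point lies above every PBS point in all 3 panels.

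Timp2 encodes an inhibitor that also takes part, with Mmp14, in the activation of the Mmp2 precursor. Its signals at 24 h were 525, 473 and 590 in kainate rats, against 303, 419 and 313 in PBS rats. At 72 h they were 531, 553 and 503 in kainate rats, against 362, 433 and 337 in PBS rats. The arrays do not overlap at either time, and the sizes were close, at 0.63 ± 0.19 on the log2 scale at 24 h (1.55-fold, limma adjusted p = 0.0308) and 0.49 ± 0.19 at 72 h (limma adjusted p = 0.577, not passing). Kainate arrays lay wholly above PBS arrays for 12.5% of all tested probe sets at 24 h and for 10.1% at 72 h. The 24 h call was lost without kainate replicate 1 (0.0648), without kainate replicate 3 (0.138), without PBS replicate 1 (0.106) or without PBS replicate 3 (0.107). At 1, 6 and 240 h the Timp2 arrays overlapped, and the log2 differences were -0.14, 0.03 and -0.03.

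Timp3 encodes an inhibitor that is held in the matrix and also blocks several ADAM proteases. At 6 h its signals were 101, 106 and 95.4 in kainate rats, against 76.4, 45.6 and 71.6 in PBS rats. The arrays do not overlap, yet the log2 difference of 0.68 ± 0.32 did not pass (limma adjusted p = 0.32), and 9.65% of all tested probe sets had kainate arrays wholly above PBS arrays at 6 h. At the other times the arrays overlapped, with log2 differences of 0.14, -0.33, -0.06 and 0.04 at 1, 24, 72 and 240 h.

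Among the proteases, only Mmp9 passed as higher. Mmp9 is gelatinase B, a secreted protease that cuts denatured collagen and basement membrane components. At 6 h its signals were 71.2, 76.4 and 81.4 in kainate rats, against 15.3, 13.9 and 10.1 in PBS rats, of which 1 was at the floor. At 24 h they were 93, 84 and 76.6 in kainate rats, against 16.7, 26.8 and 11 in PBS rats. The groups stand well apart at both times. The fitted rise was 2.52 ± 0.44 on the log2 scale at 6 h (SE, 5.74-fold, limma adjusted p = 0.000309) and 2.31 ± 0.44 at 24 h (4.95-fold, limma adjusted p = 0.000996). Without the floor, on the scale of log2(signal + 16), the rises were 1.67 and 1.58. Both calls held under all 38 alternative settings tried, 30 of which left out 1 array.

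At 1 h Mmp9 had 8.07, 18.2 and 33.6 in kainate rats and 40.9, 35.3 and 10.5 in PBS rats, with 1 array of each group at the floor, and the groups overlap (log2 difference -0.41 ± 0.44, limma adjusted p = 0.829). At 72 h it had 61.5, 68.6 and 46.1 in kainate rats, against 42.6, 38.5 and 33 in PBS rats. The 72 h arrays do not overlap, but the difference of 0.62 ± 0.44 had a limma adjusted p of 0.9. Kainate arrays lay wholly above PBS arrays for 10.1% of all tested probe sets at 72 h. At 240 h it had 24.7, 26.5 and 48.2 in kainate rats and 19.9, 43.7 and 16.4 in PBS rats, which overlap. The PBS means themselves ranged from 13.1 at 6 h to 38 at 72 h.

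Mmp14 was the 1 member that passed as lower. It encodes a membrane-anchored MMP that cuts collagen at the cell surface and activates the Mmp2 precursor. At 24 h its signals were 70.5, 117 and 62.3 in kainate rats, against 153, 186 and 146 in PBS rats, with no overlap. The fitted change was -1.0 ± 0.27 on the log2 scale (SE, 2.01-fold lower in kainate rats, limma adjusted p = 0.0157). Kainate arrays lay wholly below PBS arrays for 15.6% of all tested probe sets at 24 h. The call was lost without kainate replicate 1 (0.059), without kainate replicate 3 (0.106) or without PBS replicate 2 (0.0663). At 1, 6, 72 and 240 h the arrays overlapped, with log2 differences of -0.28, 0.24, 0.08 and 0.21.

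Mmp2, gelatinase A, had signals on X71466_at at 24 h of 48.8, 17.4 and 12.6 in kainate rats and 41.7, 62 and 50.1 in PBS rats. Kainate replicate 1 lay within the PBS range, and the change of -1.2 ± 0.41 on the log2 scale missed the threshold (limma adjusted p = 0.0543). Without that array the change was -1.77 and passed (0.00486). It also passed without kainate replicate 1 of 240 h (0.0277) or without kainate replicate 3 of 240 h (0.0421), at an unmoved size of -1.2. The other Mmp2 probe set, U65656_at, was below the filter. It had 10.3, 39.5 and 32.5 in kainate rats and 5.59, 20.2 and 23.1 in PBS rats at 24 h, a log2 difference of 0.49 when fitted without the filter (limma adjusted p = 0.577), so the 2 probe sets of Mmp2 differ in sign at that time. At 1 h U65656_at had 33.5, 14.7 and 15 in kainate rats, while all 3 PBS arrays were at the floor (limma adjusted p = 0.57 without the filter). At 240 h all 3 kainate arrays were at the floor, against 16.2, 17.7 and 20.3 in PBS rats (0.525).

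**Figure D3:**
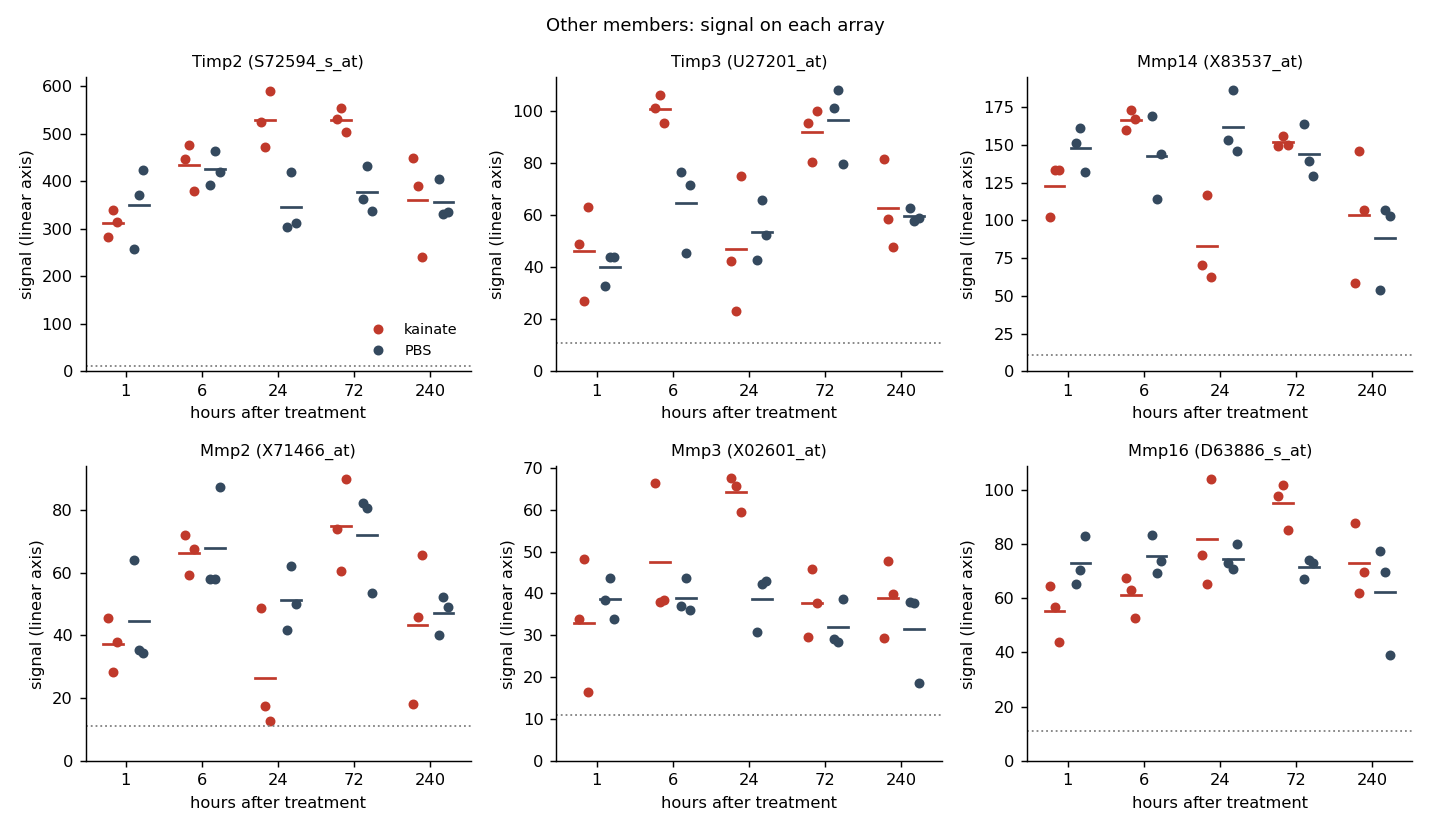
Signal (vertical linear axis) of Timp2, Timp3, Mmp14, Mmp2 (X71466_at), Mmp3 and Mmp16 on each of 30 arrays at 1, 6, 24, 72 and 240 h (horizontal axis), with kainate in red at the left and PBS in dark blue at the right of each time; points are arrays, short lines are group means and the dotted line is the floor. At 24 h the kainate points of Timp2 and Mmp3 lie above, and those of Mmp14 below, all PBS points, while those of Mmp2 overlap them.

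The secreted proteases Mmp3, Mmp7 and Mmp11 did not pass at any time. Mmp3, a stromelysin that cuts proteoglycans and activates other MMP precursors, had 67.5, 65.7 and 59.5 in kainate rats at 24 h, against 30.7, 42.3 and 43 in PBS rats. Those arrays do not overlap, and the log2 difference was 0.75 ± 0.34 (limma adjusted p = 0.153). Of all tested probe sets at 24 h, 12.5% had kainate arrays wholly above PBS arrays and 15.6% had them wholly below. Mmp7, the small protease matrilysin, averaged 36.7 ± 1.1 in kainate rats and 46.1 ± 6.25 in PBS rats at 24 h (SD, n = 3 arrays each), also without overlap (log2 difference -0.32, limma adjusted p = 0.619). Mmp11, a stromelysin activated inside the cell by furin, kept overlapping arrays at all 5 times, with log2 differences of -0.38 to 0.28.

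The remaining membrane-associated members did not pass either. Mmp23 averaged 27.7 ± 4.87 in kainate rats and 40.7 ± 3.8 in PBS rats at 24 h (SD, n = 3 arrays each), without overlap (log2 difference -0.57 ± 0.27, limma adjusted p = 0.171). At 24 h, 15.6% of all tested probe sets had kainate arrays wholly below PBS arrays. Mmp16, a membrane-type MMP, had kainate arrays wholly below PBS arrays at 1 h (64.7, 56.8 and 44 in kainate rats, against 65.2, 70.5 and 82.9 in PBS rats). Its kainate arrays were below PBS again at 6 h (67.5, 63.1 and 52.7 in kainate rats, against 83.5, 69.4 and 73.9 in PBS rats). At 72 h they lay above (97.9, 102 and 85.3 in kainate rats, against 67.2, 74.1 and 73.2 in PBS rats). None of the 3 differences passed, at -0.41 (limma adjusted p = 0.602), -0.31 (0.564) and 0.41 (0.82) on the log2 scale. Mmp16 was the only tested member whose kainate arrays lay wholly below PBS at 1 h, where 5.55% of all tested probe sets did, and at 6 h, where 18% did.

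The dim probe sets had no difference that passed when fitted without the filter. Mmp10, a stromelysin, was at the floor on 29 of 30 arrays, and Mmp8 and Mmp13, both collagenases, on 23 of 30 each, with highest signals of 11.1, 17.9 and 23.2. Mmp12, the macrophage metalloelastase, ran from 3.6 to 32.6 and was at the floor on 6 arrays. At 6 h Mmp12 had 19.7, 17.1 and 18 in kainate rats, wholly below 24.6, 21.3 and 21.4 in PBS rats (limma adjusted p = 0.857 without the filter). At 240 h it had 13.7, 19.9 and 30 in kainate rats, while all 3 PBS arrays were at the floor (limma adjusted p = 0.29 without the filter). Of all tested probe sets, 18% had kainate arrays wholly below PBS arrays at 6 h and 9.58% wholly above at 240 h.

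The time course of the kainate effect was tested next, as the change of the difference between kainate and PBS. In limma's F test for a difference between any of the 5 times, Timp1 passed on rc_AI169327_at (adjusted p = 0.000745) and on rc_AI169327_g_at (7.14e-10), and so did Mmp9 (0.00636), while 6.62% of all tested probe sets passed. The same 3 probe sets passed the F test of an effect at any time, with 9.33% overall. From 1 to 6 h the effect grew for Mmp9 by 2.93 ± 0.63 on the log2 scale (limma adjusted p = 0.0108) and for Timp1 rc_AI169327_g_at by 2.65 ± 0.42 (0.000575), with 1.09% of all tested probe sets passing. The effect on Timp1 rc_AI169327_at changed by 0.55 ± 0.3 from 1 to 6 h and did not pass (limma adjusted p = 0.52). From 6 to 24 h 1 member passed, Timp1 rc_AI169327_at, whose effect grew by 1.01 ± 0.30 (limma adjusted p = 0.0459, with 5.24% overall). That call was lost with quantile normalization (0.0664), without the filter (0.0694) and without the intensity trend (0.063), and in the last 2 of these the other Timp1 probe set passed instead (0.0413 and 0.0339). It was also lost in 18 of the 30 fits that left out 1 array, among them each array of kainate at 6 or 24 h, with sizes of 0.84 to 1.11 and limma adjusted p of 0.0234 to 0.143 over the 30. The Mmp9 effect changed by -0.21 ± 0.63 over the same interval (0.885).

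From 24 to 72 h the Timp1 effect changed by -1.9 ± 0.30 on rc_AI169327_at (limma adjusted p = 0.000477) and by -4.63 ± 0.42 on rc_AI169327_g_at (3.78e-08), with 0.746% of all tested probe sets passing. The sizes for rc_AI169327_g_at, here and from 1 to 6 h, are differences between effects that are each set by the floor on the PBS side, so they are no measure of the true change. The Mmp9 effect changed by -1.69 ± 0.63 and did not pass (0.417). No member passed in limma from 72 to 240 h, and neither did any other probe set, so the share overall was 0%. These intervals cross between the arrays of 6 and 72 h and the rest, whose part in the differences was not tested.

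The promoters of Timp1, Timp2, Timp3 and Mmp3 are printed because these are the members in the RefSeq promoter table whose kainate arrays lay wholly above PBS at 6 or 24 h. The table holds 11 of the 15 genes. Each is 300 bases of rat assembly GRCr8, 250 before and 50 after the start of transcription, written 5′ to 3′. The capitals mark letters found by a search of both strands for an AP-1 site (TGANTCA), a STAT site (TTCNNNGAA), a GC box (GGGCGG) and a PEA3 site (AGGAAG).
Timp1 promoter, chrX:3771073-3771372, minus strand: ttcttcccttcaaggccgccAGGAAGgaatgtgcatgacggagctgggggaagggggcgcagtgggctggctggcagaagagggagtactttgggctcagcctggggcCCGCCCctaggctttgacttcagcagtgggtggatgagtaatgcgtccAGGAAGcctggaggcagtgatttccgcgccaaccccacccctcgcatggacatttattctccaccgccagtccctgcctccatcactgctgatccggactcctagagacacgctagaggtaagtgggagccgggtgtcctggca
Timp2 promoter, chr10:104089165-104089464, minus strand: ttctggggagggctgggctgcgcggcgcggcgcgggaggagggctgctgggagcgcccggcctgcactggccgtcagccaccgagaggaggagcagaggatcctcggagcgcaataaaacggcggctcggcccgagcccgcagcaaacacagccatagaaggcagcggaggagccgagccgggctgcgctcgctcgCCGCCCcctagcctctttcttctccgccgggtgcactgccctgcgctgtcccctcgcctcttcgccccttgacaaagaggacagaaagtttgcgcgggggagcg
Timp3 promoter, chr7:19459509-19459808, minus strand: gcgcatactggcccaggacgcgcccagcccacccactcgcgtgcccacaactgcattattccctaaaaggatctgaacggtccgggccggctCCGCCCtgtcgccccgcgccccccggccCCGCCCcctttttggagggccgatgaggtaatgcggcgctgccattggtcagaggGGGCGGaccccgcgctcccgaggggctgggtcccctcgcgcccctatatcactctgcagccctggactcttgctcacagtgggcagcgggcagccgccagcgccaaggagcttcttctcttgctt
Mmp3 promoter, chr8:12925031-12925330, plus strand: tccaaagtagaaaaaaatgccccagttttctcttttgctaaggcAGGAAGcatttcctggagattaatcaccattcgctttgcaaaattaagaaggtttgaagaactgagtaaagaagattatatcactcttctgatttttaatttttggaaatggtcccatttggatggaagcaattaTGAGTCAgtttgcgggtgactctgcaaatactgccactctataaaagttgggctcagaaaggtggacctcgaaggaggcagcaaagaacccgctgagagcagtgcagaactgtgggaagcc
Timp1 held PEA3 letters at -230 to -225 and at -94 to -89 from the start and a GC box at -142 to -137. Timp2 held 1 GC box and Timp3 held 3. Mmp3 held an AP-1 site at -71 to -65 and PEA3 letters at -206 to -201. No exact match to the AP-1 or STAT letters was found in these windows of Timp1, Timp2 and Timp3. The search allowed no mismatch, so it does not show that such sites are absent. The Timp1 window holds tgagtaa shortly before its second PEA3 letters, which differs from the AP-1 letters at 1 base. The Mmp3 window holds the same tgagtaa beside its exact AP-1 site. Such near matches were not counted in any promoter, so they do not set Timp1 apart.

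Over the 11 promoters, AP-1 letters occurred in 5 (Mmp3, Mmp7, Mmp10, Mmp12 and Mmp13), against 7.33% of 33469 promoters of the same length. All 5 belong to protease genes on chromosome 8, where Mmp13 and Mmp12 are neighbouring coding genes, as are Mmp10 and Mmp8. Of these 5 genes only Mmp3 and Mmp7 were bright enough to be tested, and neither passed. STAT letters occurred in 2 promoters (Mmp8 and Mmp23), against 8.87%. GC boxes occurred in 5 (Mmp11, Mmp23 and the 3 TIMP genes), against 33.1%. PEA3 letters occurred in 5 (Mmp3, Mmp7, Mmp8, Mmp13 and Timp1), against 34.5%.

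Genes that act on MMPs and TIMPs were counted by list, beside the median of all tested probe sets given above. Of 15 tested transcription factors and cytokines known to act on these genes, 4 rose at 1 h (Junb, Fos, Egr1 and Jun), 8 rose at 6 h, and 2 rose (Stat3 and Nfkbia) and 1 fell (Egr1) at 24 h, and none passed at 72 or 240 h. Jun passed at 1 h on 1 of its 4 tested probe sets. In either direction 1.09%, 3.93% and 11.3% of all tested probe sets passed at 1, 6 and 24 h. The median log2 difference of the list was 0.23 at 1 h, 1.27 at 6 h and 0.02 at 24 h. Junb and Fos, which form AP-1 with partner proteins, led at 1 and 6 h. Fos averaged 1671 ± 147 in kainate rats and 287 ± 34.4 in PBS rats at 6 h (SD, n = 3 arrays each, 5.86-fold, limma adjusted p = 5.65e-11). Junb averaged 589 ± 126 in kainate rats and 87.8 ± 52 in PBS rats (7.94-fold, 3.17e-06). At 24 h the AP-1 genes of the list did not pass, and the list was led by Stat3, which carries cytokine signals to the nucleus (2.28-fold, limma adjusted p = 0.0447, with 1 of its 2 tested probe sets passing), and Nfkbia, an inhibitor of NF-kappaB (1.64-fold, 0.0409).

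Of 9 tested genes for activation, inhibition and clearance of MMPs, 1 rose at 1 h, 2 at 6 h and 1 at 24 h. Of all tested probe sets, 0.904%, 3.24% and 5.03% passed as higher at these times, and 1 of 9 at 24 h is not a result about the list. Plat, tissue plasminogen activator, was higher at 1 h (1.78-fold, limma adjusted p = 0.0181), at 6 h (2.73-fold, 3.21e-06) and at 24 h (1.73-fold, 0.00667). Plaur, the receptor that holds urokinase at the cell surface, averaged 80.2 ± 12.8 in kainate rats and 18.2 ± 3.65 in PBS rats at 6 h (SD, n = 3 arrays each, 4.44-fold, limma adjusted p = 0.000103). Of 7 tested ADAM, ADAMTS and related metalloproteinases, only Adam1a passed, at 1 h, where 1.09% of all tested probe sets did (2.73-fold, limma adjusted p = 0.0442, with 1 PBS array at the floor).

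Of 29 tested matrix and cell surface substrates, 1 fell at 1 h, 2 rose at 6 h and 3 rose (Spp1, Cd44 and Ncan) and 1 fell (Lamc1) at 24 h. Over all tested probe sets 1.09%, 3.93% and 11.3% passed at these times, so the 24 h count of 4 is near the share of all probe sets. Col5a1, a fibrillar collagen chain, was 1.97-fold lower at 1 h (limma adjusted p = 0.0223). Cd44, a hyaluronan receptor that MMPs can shed, was 3.53-fold higher at 6 h (3.14e-05) and 3.51-fold higher at 24 h (5.9e-05). Fn1, fibronectin, was 2.27-fold higher at 6 h (3.32e-05) on 1 of its 3 tested probe sets. Spp1, the secreted matrix protein osteopontin, averaged 134 ± 41.9 in kainate rats and 14.5 ± 8.05 in PBS rats at 24 h (SD, n = 3 arrays each, 8.34-fold, limma adjusted p = 3.49e-06). The list medians stayed between -0.11 and 0.06 on the log2 scale at the 5 times.

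Over all 30 arrays, each as log2 signal minus the PBS mean of its time, the 3 genes of 3691 most like each of the 3 probe sets that passed the F test of an effect at any time were found. The arrays share their treatments and times, so the correlations are descriptions. Mmp9 was most like Ifitm3, an interferon-induced membrane protein (Pearson r = 0.879), Cd44 (0.807) and Pdpn, podoplanin (0.799). Timp1 on rc_AI169327_at was most like Ifitm3 (0.877), Lgals3, galectin-3 (0.854), and Serpina3n, a serine protease inhibitor (0.831). Timp1 on rc_AI169327_g_at was most like Vgf, a secreted neuronal protein (0.952), Ifitm3 (0.938) and Litaf (0.884). On rc_AI169327_g_at 19 of 30 arrays were at the floor, every PBS array among them, so its correlations rest on the remaining kainate arrays. Ifitm3 is the 1 gene named for all 3. Among the members, the Timp1 probe sets correlated at 0.88, Mmp9 with them at 0.78 (rc_AI169327_g_at) and 0.70 (rc_AI169327_at), and Mmp14 with Mmp2 at 0.60.

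**Figure D4:**
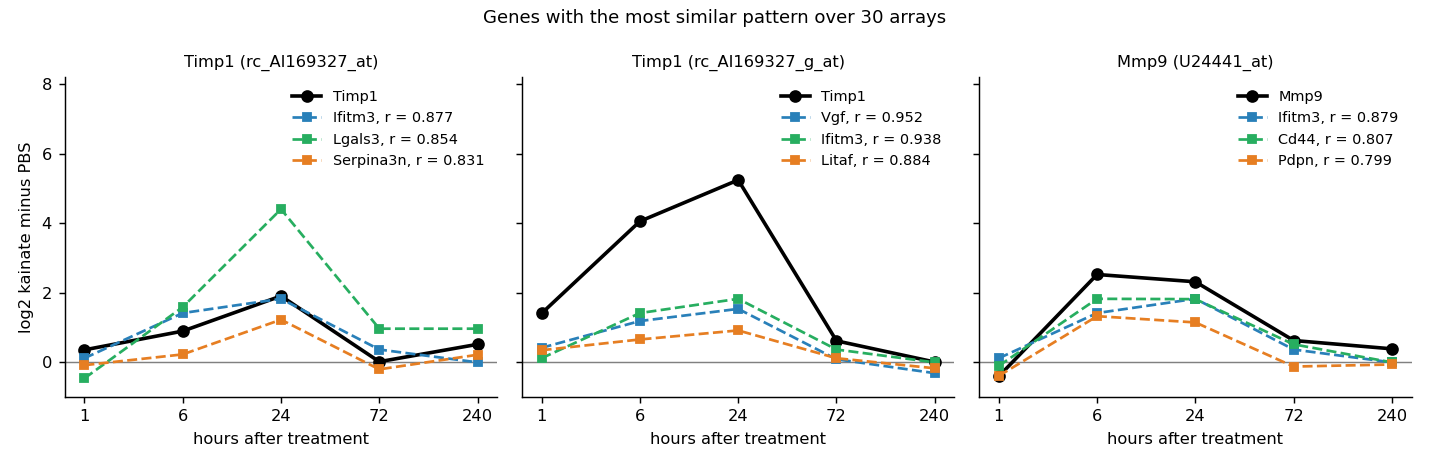
Log2 difference between kainate and PBS (vertical axis) at 1, 6, 24, 72 and 240 h (horizontal axis) for both Timp1 probe sets and Mmp9 (black) and the 3 most similar genes of each (dashed, with Pearson r over 30 arrays). The lines are highest at 6 or 24 h and lie nearer to 0 at 72 and 240 h, where Lgals3 stays at 0.96.

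Some markers of other cells moved at the same times. Of 8 tested microglia and macrophage markers, 1 rose at 6 h and 3 rose at 24 h (C1qb, Ctss and Cd53), led by C1qb, a complement subunit, at 1.19 and 1.75 on the log2 scale (limma adjusted p = 0.00246 and 2.37e-05). Of all tested probe sets 3.24% and 5.03% passed as higher at these times, and the median log2 difference of the 8 markers was -0.04 at 6 h and 0.6 at 24 h. The summed signal of 10 such markers at 24 h was 1908 to 2270 in kainate rats, against 1128 to 1381 in PBS rats (exact permutation test, two-sided p = 0.1, the smallest that 3 against 3 arrays allow). The neutrophil markers were near the floor: S100a8 was at the floor on 27 of 30 arrays and S100a9 on 21. The sum of 3 markers at 24 h was 35.5 to 59.8 in kainate rats, against 11.3 to 48.1 in PBS rats. It also overlapped at 6 and 72 h. At 1 h it was 33.1 to 42 in kainate rats, against 12.2 to 26 in PBS rats. At 240 h it was 55.8 to 81.4 in kainate rats, against 24.6 to 47.2 in PBS rats. Neither of these overlaps (exact permutation test, two-sided p = 0.1 at 1 h and at 240 h). The sum of 7 endothelial markers at 6 h was 850 to 971 in kainate rats, against 631 to 709 in PBS rats. In that list only Slc2a1, the glucose transporter of the barrier, passed at 6 h, and the list median was 0.03.

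The sum of 8 markers of hippocampal principal neurons at 24 h was 2873 to 3454 in kainate rats, against 4412 to 4680 in PBS rats. At 72 h it was 3110 to 3641 in kainate rats, against 4125 to 4170 in PBS rats. The groups do not overlap at either time. At 24 h 3 of these 8 markers fell (Camk2a, Nrgn and Gabra5), against 6.3% of all tested probe sets, and at 72 h none passed in limma. Camk2a and Gabra5 each passed on 1 of 2 tested probe sets at 24 h, and Camk2a had 1 kainate array at the floor. At 24 h the sum of 8 neuronal markers was 8654 to 9617 in kainate rats, against 10603 to 11428 in PBS rats, and that of 7 astrocyte markers was 6212 to 6986 in kainate rats, against 7706 to 8045 in PBS rats. That of 6 oligodendrocyte markers was 6218 to 6860 in kainate rats, against 7806 to 8051 in PBS rats. The exact permutation test gave a two-sided p of 0.1 for each of these sums. Counted singly, 3 of 8 neuronal, 2 of 7 astrocyte and 0 of 6 oligodendrocyte markers passed as lower, against 6.3% of all tested probe sets. Of the neuronal markers, Nefl and Nefh each passed on 1 of 2 tested probe sets and Uchl1 on 1 of 3. The sum of 11 pericyte, smooth muscle and meningeal markers at 24 h was 958 to 1052 in kainate rats, against 1103 to 1156 in PBS rats. The 1 marker of that list that passed at 24 h was higher: Tagln, a smooth muscle protein, by 0.99 on the log2 scale (limma adjusted p = 0.0342). The array medians at 6 h were 5.73 to 5.79 on the log2 scale in kainate rats, against 5.82 to 5.91 in PBS rats. The part of these shifts in the MMP and TIMP results was not tested.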

How the data were processed

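Signal intensities of rat hippocampus RNA were taken as deposited, 1 linear value per probe set and array. The method that computed them from the scans was not given in the sources used here. The trimmed means of the deposited arrays, without 2% at each end, were 150.1 to 150.2.

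Arrays were scaled to a common trimmed mean. Values were floored at a signal of 10.95 (log2 3.45, the 20th percentile) and turned into log2. The filter, a signal above 35.2 (the 40th percentile) on at least 3 arrays, kept 6303 of 8740 probe sets, and 59 control probe sets were left out. Names came from the platform annotation: 7006 probe sets had 1 gene, 308 several and 1426 none, and 6985 matched a current gene identifier, including all 17 MMP and TIMP probe sets.

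limma 3.58.1 in R 4.3.3 fitted a mean per group over 30 arrays with trended empirical Bayes moderation (20 residual and 7.26 prior degrees of freedom). P-values were adjusted by the Benjamini-Hochberg method over all tested probe sets, with a threshold of 0.05. The fit was also run on simulated data with independent noise and changes at 6 h only, and no result here rests on that run. Tables and figures used Python 3.11.15, pandas 2.3.3 and matplotlib 3.10.9. For arrays the precision is limited by their number.

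The members, gene lists and tests were chosen with earlier results of these data known. Member genes that passed at any time or in an F test are described in full and the rest by level and counts. From each pathway list, the 2 passing genes with the largest change at each time are named, each on its brightest tested probe set. Jun, Egr1, Ncan, Lamc1 and the cell type markers were named after their values were seen. Alternatives were other normalizations, floors, filters and sets of arrays.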

Additional observations from a re-analysis of the deposited data

Results flagged for a closer look

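The kainate effect differed between neighbouring times by test for Timp1 and Mmp9. From 1 to 6 h it changed by 2.93 on the log2 scale for Mmp9 (limma adjusted p = 0.0108) and by 2.65 for Timp1 on rc_AI169327_g_at (0.000575). For Timp1 on rc_AI169327_at the kainate effect changed by 0.55 over that interval and did not pass (limma adjusted p = 0.52). From 6 to 24 h it changed by 1.01 for Timp1 on rc_AI169327_at (limma adjusted p = 0.0459), a call lost in 18 of 30 fits that left out 1 array. From 24 to 72 h it changed by -1.9 for Timp1 on rc_AI169327_at (limma adjusted p = 0.000477) and by -4.63 on rc_AI169327_g_at (3.78e-08). The values of rc_AI169327_g_at are set by the floor on the PBS side. That probe set passed the brightness filter through kainate arrays only, so its p-values are only a description.

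All Mmp16 kainate arrays lay below PBS at 1 h (-0.41 on the log2 scale) and at 6 h (-0.31), and all lay above PBS at 72 h (0.41), but none of the 3 differences passed (limma adjusted p = 0.602, 0.564 and 0.82). Of all tested probe sets, 5.55% lay wholly below at 1 h, 18% wholly below at 6 h and 10.1% wholly above at 72 h. The differences between these times were not tested pair by pair, and limma's F test over all 5 times did not pass (adjusted p = 0.257).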

How the results depend on the processing

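The 9 calls of members were refitted under 38 settings each, 342 fits in all: 323 kept the call, 19 lost it and 0 reversed it. Both Mmp9 calls, the 24 h call of Timp1 on rc_AI169327_at and the 6 and 24 h calls on rc_AI169327_g_at held throughout, although without a floor the last 2 were 3.17 and 4.16 on the log2 scale. Timp2 at 24 h was also lost with array weights (limma adjusted p = 0.0555), with only the 6 arrays of 24 h (0.0629) and without the arrays of 6 and 72 h (0.0957), and Mmp14 at 24 h with only those 6 arrays (0.0645) and without the arrays of 6 and 72 h (0.0693). Timp1 at 1 h on rc_AI169327_g_at was also lost with the replicate block (0.0533). Pairing by replicate number was checked by correlating deviations from the group means between kainate and PBS arrays of a time. Same-numbered arrays had r of -0.07 to 0.17, over 0.1 in 3 of 15 pairs, and differently numbered arrays had -0.15 to 0.10. With 3 arrays in each group this check cannot exclude a pairing.

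The number of members called at 1 h was 0 with the replicate block, with only the 6 arrays of that time and without the arrays of 6 and 72 h, and 0 to 1 when leaving out 1 array. At 24 h it was 3 in these last 2 fits, and 3 to 6 when leaving out 1 array. For the change from 1 to 6 h it was 1 with the replicate block, where Mmp9 had a limma adjusted p of 0.0662. For the change from 6 to 24 h it was 0 with quantile normalization, 2 with no floor, with array weights and with the replicate block (Mmp14 joining Timp1 rc_AI169327_at in these 3), and 0 to 2 when leaving out 1 array. It stayed at 1 without the filter and without the intensity trend, but there the member was rc_AI169327_g_at. At 6 h, 2 to 3 members passed when leaving out 1 array. The other counts of members stayed within 1.5 times.

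Over all tested probe sets, 69, 248, 714, 3 and 3 passed from 1 to 240 h. At 1 h, 31 passed with only the 6 arrays of that time and 43 without the arrays of 6 and 72 h. At 6 h, 633 passed with array weights, 481 in a fit of the arrays of 6 and 72 h, and 163 to 279 when leaving out 1 array. At 24 h, 256 passed with only the 6 arrays of that time, 343 without the arrays of 6 and 72 h, and 336 to 756 when leaving out 1 array. At 72 h, 10 passed without the filter, 153 with array weights, 5 in a fit of the arrays of 6 and 72 h, and 0 without the intensity trend, with the replicate block or with only the 6 arrays of that time, and 0 to 5 when leaving out 1 array. At 240 h, 13 passed without the filter, 0 with only the 6 arrays of that time or without the arrays of 6 and 72 h, and 0 to 19 when leaving out 1 array. The cause was not tested.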
